A study of Mus musculus with 5 samples.

Results

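The Fat and Dachsous cadherins and the kinase Fjx1 form the cell-surface branch at the top of the Hippo pathway, and their transcripts were compared between mouse eye tumors arising from floxed Lats1 and Lats2 alleles exposed to Cre and wild-type uvea. The 6 genes examined, Fat1, Fat2, Fat3, Fat4, Dchs1 and Fjx1, were selected by gene name from the deposited table. Each matched a single locus, so 6 of 24768 loci are described, and all 6 passed the filter on low counts that left 15241 named loci for testing.

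Fat and Dachsous proteins are giant cadherins with long chains of extracellular cadherin repeats. A Dachsous cadherin on one cell binds a Fat cadherin on its neighbour, and in the fly this contact orients cells within an epithelium and restrains growth through the kinase Warts, the fly counterpart of Lats1 and Lats2. In mice the best studied pair is Dchs1 as ligand and Fat4 as receptor. Fjx1 is the mouse relative of the fly gene four-jointed, whose product is a kinase of the Golgi that phosphorylates cadherin repeats of Fat and Dachsous and so tunes their binding.

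Tumor libraries (3) came from eye tumors of adult mice of the genotype AAV5-Cre;Lats1/2 fl/fl, in which floxed alleles of both kinases had been exposed to Cre recombinase delivered by an adeno-associated virus. Wild-type libraries (2) came from uveal tissue of adult mice labelled wild type, with no virus named for them. The groups thus differ in genotype, in the virus named and in being tumor or normal tissue, and these cannot be told apart. The promoter behind Cre and the mouse strain are missing from the labels. Nor do these state whether each library had its own animal, and p-values therefore cover just the variation among these samples, which could be technical.

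The libraries held 13745768, 12687703 and 14368272 estimated fragments in tumors 1, 2 and 3, against 13911934 and 12799991 in wild type. Lats1 was at 3.43, 3.90 and 2.94 FPKM in tumors, against 7.55 and 8.86 FPKM in wild type, and Lats2 was at 12.6, 17.0 and 14.3 FPKM in tumors, against 20.05 and 20.2 FPKM in wild type. FPKM counts fragments relative to transcript length and library size, and counts over a whole gene can include exons outside the deleted stretch. Tumors varied more among themselves, with a median SD of log2 CPM (counts scaled to library size) of 0.343, against 0.0882 in wild type. The series calls the tumors uveal melanoma. Marker genes of melanocytes and pigment cells summed to 29.6, 45.5 and 19.6 FPKM in the tumors, against 7012 and 6783 FPKM in wild type, and all 11 marker loci fell. Photoreceptor markers summed to 1.95, 6.23 and 5.81 FPKM in the tumors, against 1281 and 1387 FPKM in wild type, so the wild-type libraries held transcripts of the retina besides those of the uvea.

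Among the members, Dchs1, the ligand-type cadherin, fell in the tumors, and it was the single member to pass the test. It was at 1.52, 2.38 and 1.32 FPKM in tumors 1, 2 and 3, against 4.33 and 4.06 FPKM in wild type. All tumors lay below both wild-type libraries, and tumor 2 was the highest of the tumors. Dchs1 averaged 1.74 ± 0.562 FPKM in tumors (SD, n = 3) and 4.20 ± 0.194 FPKM in wild type (SD, n = 2). Its log2 fold change of tumor over wild type was −1.22 (SE 0.29), a level 2.33-fold lower, with an adjusted p of 0.033 in edgeR's quasi-likelihood test with Benjamini-Hochberg adjustment over all tested loci. The change rests on 224, 348 and 184 fragments in tumors, against 608 and 526 in wild type. In bulk tissue, fewer cells that express a gene and less RNA per cell cannot be told apart.

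Of the 6 members, 0 were called higher and 1 lower at an adjusted p under 0.05. Among all tested loci 34.1% were called, 18.7% higher and 15.4% lower, so 1 of 6 members lower stands near the share of all loci. The gene Dchs1 lies at chr7:105752990-105787654 (mm10, GENCODE M21, minus strand), a protein-coding gene of 21 exons in its longest transcript. A transcribed pseudogene, Gm15645, overlaps it on the opposite strand, and without a stated strand setting its reads cannot be told apart from those of Dchs1.

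**Figure D1:**
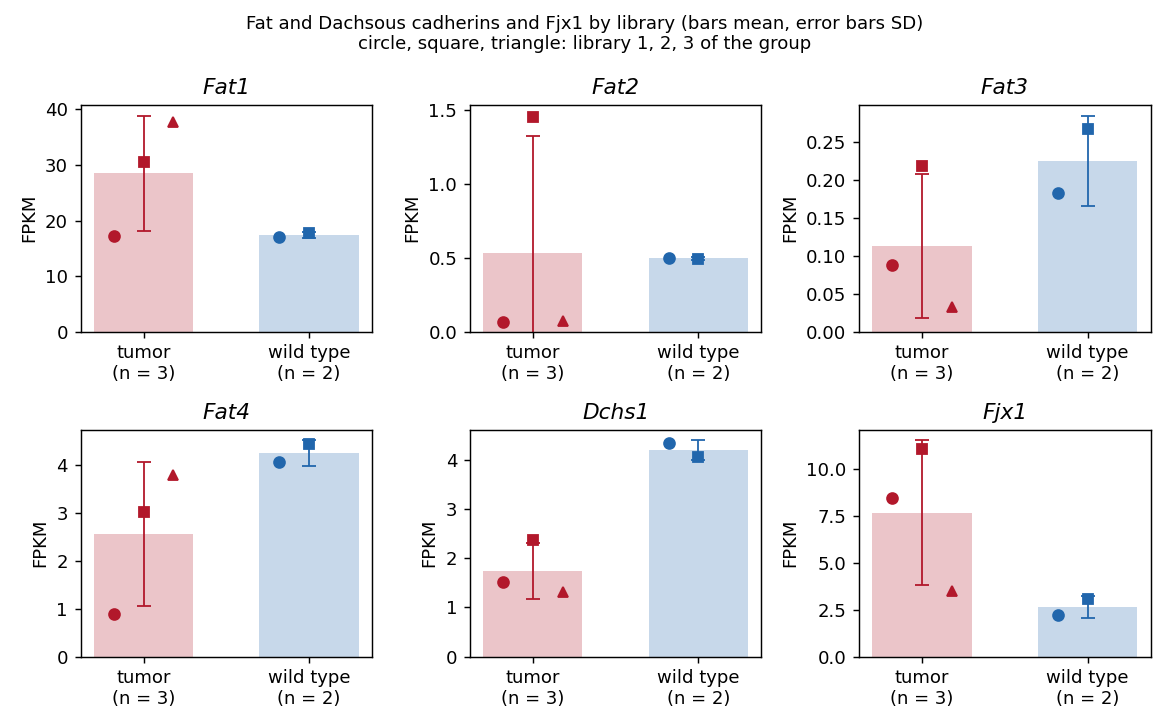
FPKM of each member in every library, with bars for group means and error bars for the SD (3 tumor libraries in red on the left, 2 wild-type libraries in blue on the right; each panel has its own axis from 0, and the SD bar of Fat2 in tumors would run below 0). Dchs1 lies lower in all 3 tumors and Fjx1 higher, while tumor 2 alone carries Fat2 at 1.45 FPKM.

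Fjx1, the kinase, was higher in every tumor than in either wild-type library, but the difference did not pass the test. It was at 8.47, 11.1 and 3.51 FPKM in tumors 1, 2 and 3, against 2.24 and 3.07 FPKM in wild type. Tumor 3 lay just above the higher wild-type library, while tumors 1 and 2 were well above it. Fjx1 averaged 7.69 ± 3.85 FPKM in tumors (SD, n = 3) and 2.66 ± 0.583 FPKM in wild type (SD, n = 2), with a log2 fold change of 1.59 (SE 0.56, edgeR adjusted p = 0.084). Being a single-exon gene of 3134 bases, it gives few fragments for its level. There were 268, 346 and 104 in tumors, against 67 and 85 in wild type, and the 95% exact Poisson intervals of tumor 3 (85.0 to 126) and wild-type library 2 (67.9 to 105) overlapped. Such intervals cover counting error only. The gene lies at chr2:102449366-102452499 (mm10, GENCODE M21, minus strand).

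Fat4, the receptor of Dchs1, was lower in all 3 tumors, with a difference that did not pass the test. It was at 0.882, 3.02 and 3.79 FPKM in tumors 1, 2 and 3, against 4.06 and 4.44 FPKM in wild type. Tumor 1 stood far below, and tumor 3 lay just under the wild-type libraries. Fat4 averaged 2.56 ± 1.51 FPKM in tumors (SD, n = 3) and 4.25 ± 0.271 FPKM in wild type (SD, n = 2), with a log2 fold change of −0.68 (SE 0.60, edgeR adjusted p = 0.41). Without tumor 1 that value was −0.27 and without tumor 3 it was −1.08, neither with a call. Counts were 200, 675 and 806 fragments in tumors, against 868 and 881 in wild type. The gene has 17 exons in its longest transcript and lies at chr3:38886940-39011985 (mm10, GENCODE M21, plus strand), and antisense transcripts C230034O21Rik and Gm43539 overlap its ends. The groups did not overlap at Dchs1, Fjx1 and Fat4, that is at 3 of 6 members, and they did not overlap at 69.5% of all tested loci.

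Fat1 was the most abundant member in every library. It takes part in actin dynamics and cell migration and is a recurrently mutated gene of human squamous cancers, and mice without it have eye defects. Its level was 17.3, 30.6 and 37.7 FPKM in tumors 1, 2 and 3, against 17.0 and 17.7 FPKM in wild type. Tumor 1 lay between the wild-type libraries, while tumors 2 and 3 were above both. Fat1 averaged 28.5 ± 10.4 FPKM in tumors (SD, n = 3) and 17.3 ± 0.536 FPKM in wild type (SD, n = 2), with a log2 fold change of 0.76 (SE 0.37, edgeR adjusted p = 0.16). Depth does not limit this gene, with 3581, 6241 and 7342 fragments in tumors, against 3340 and 3218 in wild type. Leaving out tumor 1, the tumor at the wild-type level, put the log2 fold change at 1.03 (SE 0.19), with an edgeR adjusted p of 0.033. In that fit 15.9% of all loci were called higher. Without tumor 2 it was 0.66 (edgeR adjusted p = 0.25) and without tumor 3 it was 0.50 (edgeR adjusted p = 0.28). Fat1 lies at chr8:44935447-45052257 (mm10, GENCODE M21, plus strand) with 27 exons in its longest transcript and an antisense gene, Gm2366, inside it.

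Fat2 was above wild type in 1 tumor and below it in the other tumors. In the fly its relative drives the collective migration of egg chamber cells, and in the mouse it is known from cerebellar granule cells. Its level was 0.0641, 1.45 and 0.0737 FPKM in tumors 1, 2 and 3, against 0.502 and 0.490 FPKM in wild type. Tumors 1 and 3 lay below both wild-type libraries and tumor 2 above them, so the groups overlapped. The counts behind these levels were 13, 290 and 14 fragments in tumors (95% exact Poisson intervals 6.92 to 22.2, 258 to 325 and 7.65 to 23.5), against 96 and 87 in wild type (77.8 to 117 and 69.7 to 107). The ratio of the highest to the lowest tumor was 22.6, against 1.02 between the wild-type libraries. Of 14771 tested loci above 0 in all tumors, 3.29% had a range among tumors at least as wide. Over all 5 libraries the log2 fold change of Fat2 was 0.15 (SE 1.47, edgeR adjusted p = 0.95). Without tumor 2 it was −2.82 (SE 0.31, edgeR adjusted p = 0.0083), and in that fit 20.7% of loci were called lower.

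The summed markers of stratified epithelium were, like Fat2, highest in tumor 2 and below wild type in tumors 1 and 3. The 10 loci of that list, keratins (Krt14 shares a locus with Krt16) and desmosomal genes with Trp63, summed to 24.6, 1536 and 187 FPKM in tumors 1, 2 and 3, against 1164 and 1228 FPKM in wild type. All 10 were above 1 FPKM in tumor 2 and in both wild-type libraries, whereas 4 were in tumor 1 and 7 in tumor 3. Krt5, a keratin of basal epithelial cells, was at 5.98, 400 and 20.8 FPKM in the tumors, against 356 and 379 FPKM in wild type, and Dsg3, a desmosomal cadherin, was listed at 0 in tumor 1. The locus of Krt14 and Krt16 differed from this pattern in tumor 3. It was at 14.0, 247 and 143 FPKM in tumors 1, 2 and 3, against 89.6 and 91.4 FPKM in wild type, and it made up most of the sum in tumor 3. Stratified epithelium was not the only list with this pattern. Schwann cell and glial markers summed to 242, 395 and 212 FPKM in tumors 1, 2 and 3, against 272 and 270 FPKM in wild type. Tumor 2 was also the highest tumor for the photoreceptor, inner retina, melanocyte and lens sums. The part of any of these markers in the level of Fat2 was not tested. Fat2 lies at chr11:55250609-55336564 (mm10, GENCODE M21, minus strand) with 24 exons in its longest transcript, and the deposited locus ends 24307 bases short of this gene model on the side where transcription starts.

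Fat3, which shapes the dendrites of amacrine cells in the mouse retina, was the least abundant member in mean level. Its level was 0.0883, 0.218 and 0.0328 FPKM in tumors 1, 2 and 3, against 0.183 and 0.268 FPKM in wild type. Tumor 2 lay between the wild-type libraries, and tumors 1 and 3 lay below them. Counts were 23, 56 and 8 fragments in tumors, against 45 and 61 in wild type, over a gene whose longest transcript has 18760 bases. In edgeR Fat3 had a log2 fold change of −0.94 (SE 0.80) and an adjusted p of 0.40. Without tumor 2 it was −1.85 (edgeR adjusted p = 0.082) and without tumor 3 it was −0.51 (edgeR adjusted p = 0.50). Markers of inner retina and Muller glia (10 genes) summed to 141, 314 and 121 FPKM in tumors, against 3072 and 3154 FPKM in wild type. Tumor 2 was the highest tumor here too, as in several other marker lists. Most of the wild-type sum came from Rlbp1 and Glul, at 1699 and 1045 FPKM in wild-type library 1, and 3 of the 10 genes were called lower. The part of these markers in the level of Fat3 was not tested. Fat3 lies at chr9:15910189-16501285 (mm10, GENCODE M21, minus strand), and the deposited locus ends 123054 bases short of this gene model on the side where transcription starts.

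**Figure D2:**
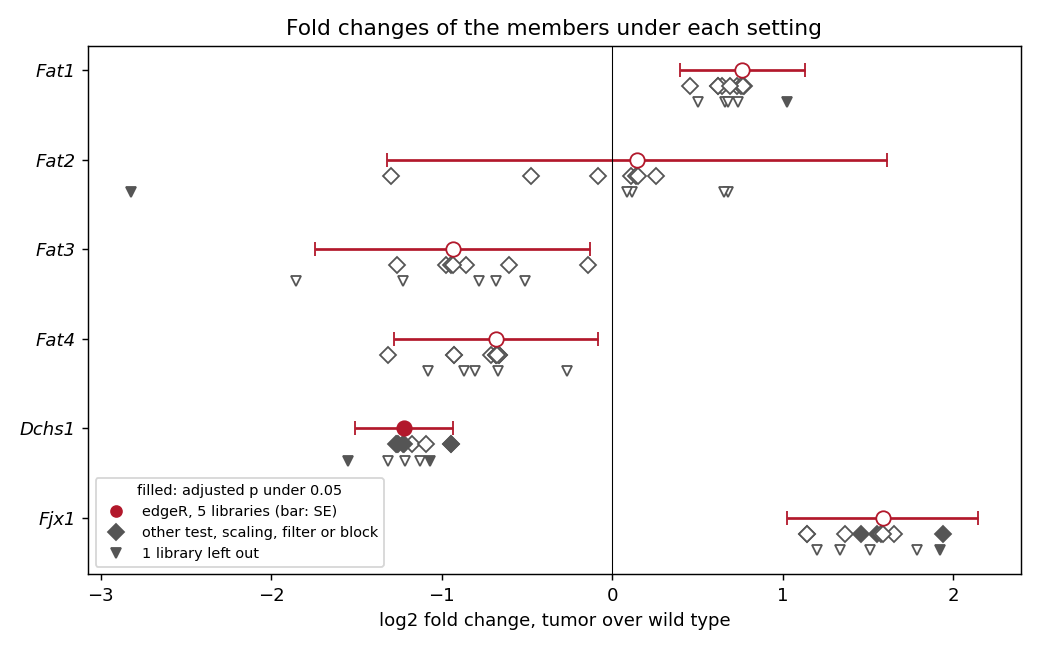
Log2 fold change of each member, tumor over wild type, in edgeR over 5 libraries (red circles, bars for the SE), under other tests, scalings, filters or the replicate block (diamonds) and with 1 library left out (triangles); filled symbols have an adjusted p under 0.05, and values from log2(FPKM + pseudocount) are among the diamonds. Dchs1 stays negative and Fjx1 positive in every setting, while Fat2 runs from −2.82 to 0.68.

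The calls of the members moved with the libraries and the test. Without tumor 1, Dchs1 lost its call (adjusted p = 0.078), leaving 0 members lower where 13.7% of loci were, and Fat1 was the member called higher (15.9% of loci). Without tumor 2, the members called lower were Dchs1, with an adjusted p of 0.0087, and Fat2. Without tumor 3, Fjx1 was called higher at 1.92 (SE 0.27, edgeR adjusted p = 0.015; 18.7% of loci) and Dchs1 lower at −1.07 (adjusted p = 0.046; 16.6% of loci). DESeq2 over all 5 libraries called Fjx1 higher at 1.55 (adjusted p = 0.029; 24.2% of loci) and Dchs1 lower at −1.25 (adjusted p = 0.0021; 21.5% of loci). Without wild-type library 1 or 2, Dchs1 was at −1.22 or −1.31 with an edgeR adjusted p of 0.18 or 0.17; in those fits 0 loci passed the adjusted threshold, and 4085 or 3996 had an unadjusted p under 0.05. Scaling by library size alone ended the call of Dchs1 (edgeR adjusted p = 0.057), with 13.4% of loci called lower. With a weight per group in voom, a setting chosen after seeing the data, Fjx1 was higher (adjusted p = 0.028; 25% of loci) and Dchs1 lower (adjusted p = 0.0058; 23.1% of loci).

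Levels per length ordered the members in a similar way in both groups, apart from Fjx1. In the tumors the order by mean FPKM was Fat1, Fjx1, Fat4, Dchs1, Fat2 and Fat3, where only Fat1 was clear of its neighbour and each later pair of neighbours overlapped. In wild type it was Fat1, Fat4, Dchs1, Fjx1, Fat2 and Fat3, where only Fat4 and Dchs1 overlapped. Among tested loci, 74.8% had a lower mean FPKM over the 5 libraries than Fat1, 37.1% than Fjx1, 26.1% than Fat4, 23.2% than Dchs1, 4.84% than Fat2 and 0.505% than Fat3. Fat1 supplied 94.4%, 86.7% and 90.6% of the summed FPKM of the 4 Fat genes in tumors 1, 2 and 3, against 78.2% and 77.3% in wild type. Fat4 supplied 4.81%, 8.55% and 9.12% of that sum in the tumors, against 18.7% and 19.4% in wild type, below both wild-type libraries in every tumor.

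The balance of ligand, receptor and kinase transcripts differed between libraries. Dchs1 and Fat4 stood at nearly equal FPKM in wild type, with ratios of 1.07 and 0.915, whereas the tumors had ratios of 1.72, 0.787 and 0.348 on both sides of these. The ratio of Fjx1 to Dchs1 was 5.57, 4.67 and 2.66 in tumors 1, 2 and 3, against 0.518 and 0.756 in wild type, so the kinase transcript exceeded the ligand transcript in every tumor and in neither wild-type library. The ratio of Fjx1 to Fat4 was 9.60, 3.67 and 0.925 in tumors, against 0.553 and 0.691 in wild type. Fat1 exceeded Fat4 by ratios of 19.6, 10.1 and 9.94 in tumors, against 4.18 and 3.99 in wild type. These ratios are given as descriptions, without a test.

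**Figure D3:**
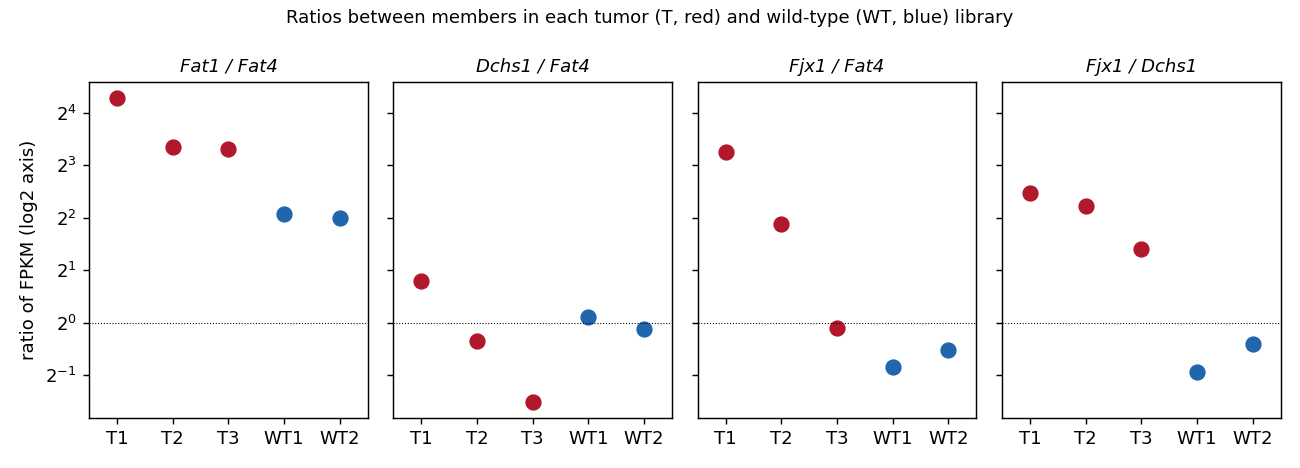
Ratios of FPKM between members in each tumor (T, red) and wild-type (WT, blue) library on a log2 axis, with a dotted line at equal levels. Fjx1 to Dchs1 lies between 2.66 and 5.57 in the 3 tumors and under 1 in both wild-type libraries, whereas Dchs1 to Fat4 scatters around the wild-type values.

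RefSeq promoter windows (GRCm38.p6, 250 bases before to 50 after a start) matched 4 of the 6 members, Fat1 to Fat4; Dchs1 and Fjx1 did not match. They were searched on both strands for GGAATG, the core letters that TEAD factors, the DNA-binding partners of YAP and TAZ, recognise, and for the E-box CANNTG. These TEAD letters were found in the windows of Fat1 and Fat2 and occurred in 14.7% of 32851 windows of this length; they were not present in the Fat3 and Fat4 windows. E-boxes numbered 3 in Fat1, 1 in Fat2 and 0 in Fat3 and Fat4, against 72.3% of windows with at least 1. The windows with a match are shown with the TEAD letters in capitals. That of Fat1, chr8:44949958-44950257 on the plus strand, begins its transcript 15426 bases inside the deposited locus, and its match begins at position −102 from the start site. That of Fat2, chr11:55312208-55312507 on the minus strand, has its start site at the end of the deposited locus, and its match begins at position −185. This start site lies 24307 bases inside the GENCODE gene model of Fat2. The windows of Fat1 and Fat2 thus belong to starts inside the gene and not to its outer end. A match is a description of letters and not a binding site.
Fat1: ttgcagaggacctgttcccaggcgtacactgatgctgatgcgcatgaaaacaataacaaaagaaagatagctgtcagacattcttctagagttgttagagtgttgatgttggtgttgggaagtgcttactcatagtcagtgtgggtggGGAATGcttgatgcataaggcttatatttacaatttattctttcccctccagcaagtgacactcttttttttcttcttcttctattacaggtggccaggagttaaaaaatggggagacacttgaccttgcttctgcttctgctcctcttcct
Fat2: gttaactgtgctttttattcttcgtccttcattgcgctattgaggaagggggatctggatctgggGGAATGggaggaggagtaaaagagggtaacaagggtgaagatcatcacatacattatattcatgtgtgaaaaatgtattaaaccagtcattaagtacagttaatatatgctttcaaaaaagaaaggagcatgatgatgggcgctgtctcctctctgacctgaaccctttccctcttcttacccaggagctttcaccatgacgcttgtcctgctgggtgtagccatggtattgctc

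Proteins reported to bind or act with Fat or Dachsous cadherins in fly or mouse were examined next. Of 21 tested, 4 rose, 6 fell and 11 did not pass, beside 18.7% of all tested loci called higher and 15.4% called lower. The median log2 fold change was −0.37, against 0.048 over all tested loci. No difference between a list and all loci was tested, here or for the lists that follow. Lix1l, a relative of fly lowfat, which binds the tails of both cadherins, fell to 33.2 ± 7.13 FPKM in tumors (SD, n = 3), against 68.4 ± 0.0337 FPKM in wild type (SD, n = 2; log2 fold change −0.95, edgeR adjusted p = 0.029). The polarity scaffold gene Pard3 fell as well (−1.01, edgeR adjusted p = 0.024), as did Ctnnb1, which encodes beta-catenin (−0.88, edgeR adjusted p = 0.027). Lix1, Rere and Enah were the other genes of the list that fell, with log2 fold changes of −2.42, −1.25 and −0.97. Vasp, an actin regulator of the family that binds Fat1, rose to 80.2 ± 31.8 FPKM in tumors, against 30.8 ± 2.62 FPKM in wild type (1.46, edgeR adjusted p = 0.038). Csnk1e, a relative of the fly kinase that phosphorylates the Fat tail, rose by 0.77 (edgeR adjusted p = 0.035). Fbxl7, whose fly relative acts below Fat, rose by 0.92 (edgeR adjusted p = 0.036), and Wtip, a LIM protein gene, by 0.67. Without tumor 1, 2 genes of this list rose and 4 fell, where 15.9% and 13.7% of all loci did. Without tumor 2, 2 rose and 6 fell, where 20.7% of all loci were called lower and 6144 of 15062 were called in either direction. With library size alone, 3 rose and 4 fell, where 13.4% of all loci were called lower and 5117 of 15241 were called in either direction. In each of the 6 lists 0 genes rose or fell when 1 wild-type library was left out, whichever it was.

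The core planar cell polarity genes, which share the task of orienting cells with the Fat and Dachsous cadherins, were examined as well. Of 17 tested, 2 rose and 1 fell, beside the same 18.7% and 15.4% of all loci, with a median log2 fold change of −0.62. Prickle3 and Dvl1, cytoplasmic members of the core complex, rose by 0.69 (edgeR adjusted p = 0.028) and 0.70 (edgeR adjusted p = 0.033). Prickle2 fell by 1.27 (edgeR adjusted p = 0.044). Without tumor 2, 8 genes of this list fell, in a fit where 20.7% of all loci were called lower, and with voom 6 did, where 23.1% were. With library size alone 0 fell, where 13.4% of all loci were called lower.

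The other cadherins are set beside the same shares of all loci, 18.7% higher and 15.4% lower. Of 16 tested large or atypical cadherins 2 rose and 2 fell (median log2 fold change −0.47), and of 16 tested classical cadherins 1 rose and 2 fell (median −0.24). Cdhr1, a photoreceptor cadherin, had a log2 fold change of −8.02 (edgeR adjusted p = 0.012) and Clstn1, a calsyntenin of neurons, one of −1.93 (edgeR adjusted p = 0.00999). Pcdh12, a protocadherin of endothelium, rose by 2.34 (edgeR adjusted p = 0.0072) and Pcdh18 by 1.29 (edgeR adjusted p = 0.028). Cdh3, the P-cadherin of epithelia and pigment cells, fell to 5.14 ± 3.10 FPKM in tumors, against 48.5 ± 0.0161 FPKM in wild type (log2 fold change −3.17, edgeR adjusted p = 0.022). Cdh22 fell by 4.69 (edgeR adjusted p = 0.037). Cdh15, the cadherin of muscle cells, rose by 4.38 (edgeR adjusted p = 0.039). It was at 2.48, 1.81 and 0.341 FPKM in tumors 1, 2 and 3, against 0.0564 and 0.0912 FPKM in wild type. Skeletal muscle markers summed to 10040, 580 and 582 FPKM in tumors 1, 2 and 3, against 765 and 733 FPKM in wild type. The part of muscle in the level of Cdh15 was not tested. Without tumor 2, 5 atypical and 6 classical cadherins fell, where 20.7% of all loci did, and 0 classical ones rose. In that fit 6144 of 15062 loci were called in either direction. Without tumor 1, 1 classical cadherin fell and 0 rose, where 13.7% of all loci were called lower and 15.9% higher. Without tumor 3, 3 rose, where 18.7% of all loci did. DESeq2 had 3 classical rises and 2 falls, where 24.2% of all loci were called higher and 21.5% lower. With voom there were 3 rises and 5 falls, where 25% were called higher and 23.1% lower.

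**Figure D4:**
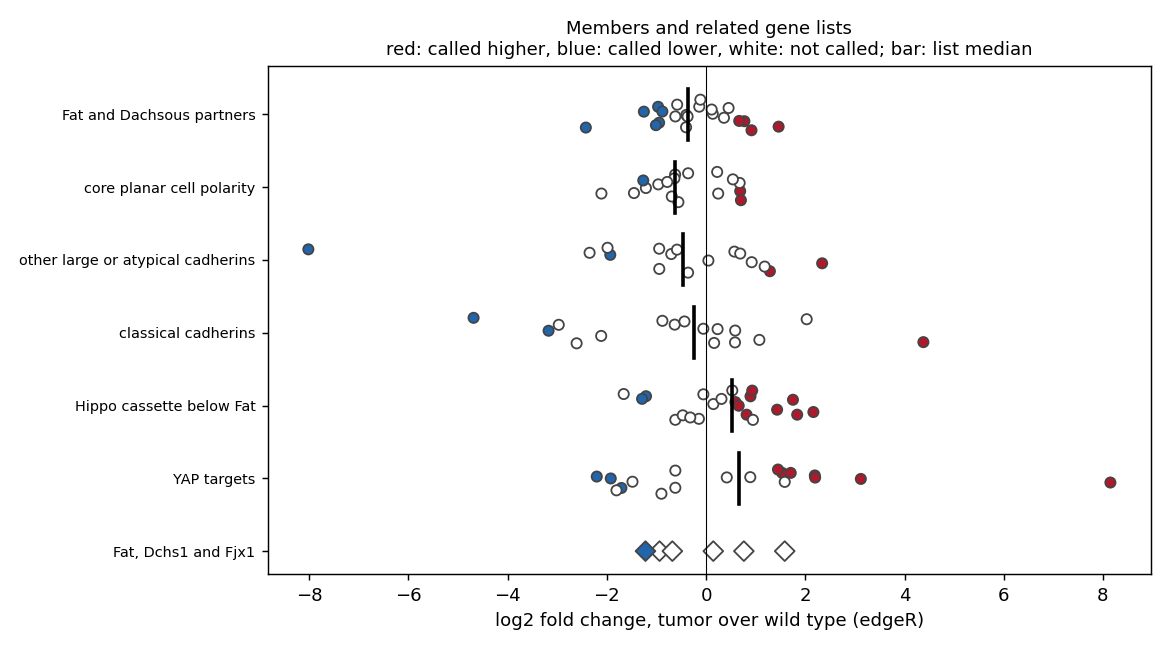
Log2 fold changes (edgeR, tumor over wild type) of tested genes in 6 related lists and of the 6 members (diamonds, bottom row), with red for called higher, blue for called lower, white for not called and a bar at each list's median. The members spread from −1.22 to 1.59, within the range of each of the 6 lists except the narrower upper ends of the partner and planar polarity lists.

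Below the cadherins, the Hippo cassette list had 9 rises and 2 falls among 21 tested genes (median log2 fold change 0.53), beside 18.7% and 15.4% of all loci, led by Rassf1 (2.16, edgeR adjusted p = 0.0039), Frmd6 (1.84, edgeR adjusted p = 0.0057) and Tead4 (1.75, edgeR adjusted p = 0.0090). Its falls were Lats1 and Yap1, at −1.21 and −1.29. A list of YAP targets had 7 rises and 3 falls among 18 tested genes (median 0.65), beside the same shares of all loci. Its rises with the smallest p were Ankrd1, a muscle-associated ankyrin repeat gene (8.15, edgeR adjusted p = 0.0033), Gadd45b (3.12, edgeR adjusted p = 0.0030) and Igfbp3, an IGF-binding protein gene (1.45, edgeR adjusted p = 0.012). Its falls were Dock5 (−1.71, edgeR adjusted p = 0.017), Crim1 (−2.20, edgeR adjusted p = 0.018) and Nt5e, which encodes the ectonucleotidase CD73 (−1.92, edgeR adjusted p = 0.029). Fjx1 stands in that list too, since it is often counted among YAP targets, and so does Lats2. The falls numbered 5 in each of these lists without tumor 2, where 20.7% of all loci were called lower. Without tumor 1 the Hippo cassette had 1 fall, where 13.7% of all loci were called lower. With DESeq2, under which 24.2% of all loci were called higher and 21.5% lower, the Hippo cassette had 10 rises and 5 falls and the YAP targets 9 and 5. With voom, under which those shares were 25% and 23.1%, the Hippo cassette had 11 rises and 5 falls and the YAP targets 9 and 8, so that rises and falls among the YAP targets were nearly equal in number. With limma-trend the Hippo cassette had 6 rises and 3 falls, and the shares of all loci under that test are not given here.

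Fibroblast and mesenchymal markers, from cells in which Fat4 and Dchs1 are commonly expressed, summed to more in every tumor than in wild type. The 10 genes came to 3627, 2689 and 4422 FPKM in tumors 1, 2 and 3, against 2132 and 2322 FPKM in wild type, with 4 called higher and 2 lower. These genes went both ways. Every tumor lay above both wild-type libraries at Col1a1, Col1a2, Col3a1, Pdgfra, Pdgfrb and Thy1, and below both at Dcn, Fbln1 and Fap, while Lum was mixed. Col1a1 was at 755, 599 and 1419 FPKM in tumors, against 157 and 155 FPKM in wild type. Dcn was at 809, 491 and 448 FPKM in tumors, against 1206 and 1373 FPKM in wild type. Leukocyte markers summed to 777, 655 and 1588 FPKM in tumors, against 179 and 190 FPKM in wild type. Endothelial markers summed to 260, 178 and 130 FPKM in tumors, against 295 and 280 FPKM in wild type. Lens markers summed to 13.0, 51.6 and 49.97 FPKM in tumors, against 217 and 208 FPKM in wild type, and Schwann cell and glial markers to 242, 395 and 212 FPKM in tumors, against 272 and 270 FPKM in wild type. The part of any of these in the levels of Dchs1, Fat4 or Fjx1 was not tested.

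**Figure D5:**
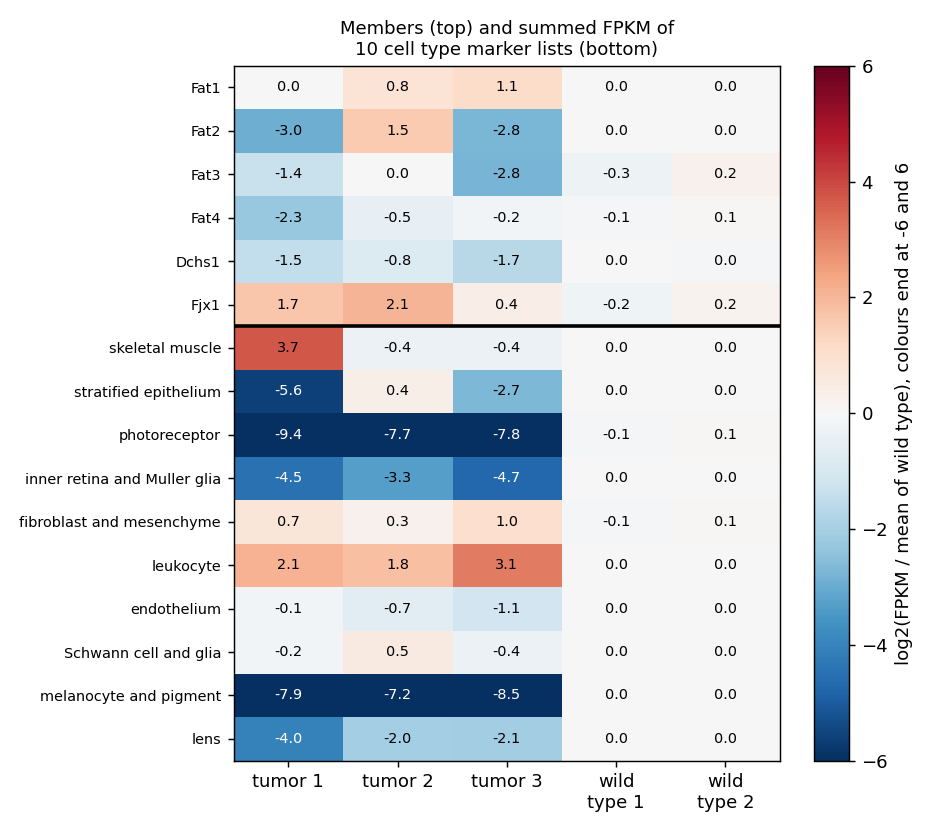
Log2 ratio of FPKM to the wild-type mean for the 6 members (top) and for the summed FPKM of 10 cell type marker lists (bottom) in 3 tumor libraries and 2 wild-type libraries; colours end at −6 and 6. Fat2 and the stratified epithelium list are both lower in tumors 1 and 3 and near or above wild type in tumor 2. The Schwann cell and glia list has the same signs, at −0.17, 0.54 and −0.35 in tumors 1, 2 and 3.

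Patterns most like each member were sought among 13412 loci of a single name, by the root mean square difference of centred log2 CPM over the 5 libraries. For Dchs1 the nearest were Ptplad1, Syt17 and Usp20, with differences of 0.0799, 0.0803 and 0.0812. Fjx1 was nearest to Gpr126, Dkk2 and Cd55, at 0.117 to 0.166. Fat4 was nearest to 4921511C10Rik, Krt19 and 1700048O20Rik, at 0.0735 to 0.128, and Fat1 to D030025P21Rik, Phldb3 and Mast3, at 0.0539 to 0.0678. Fat2 was nearest to Megf6, Tmem178 and Itga3, at 0.144 to 0.234. Being selected by likeness to Fat2 over these libraries, all 3 were highest in tumor 2, as was Fat2. Itga3 was at 5.65, 67.1 and 4.29 FPKM in tumors 1, 2 and 3, against 29.3 and 32.3 FPKM in wild type. Fat3 was nearest to Arap2, Chmp4c and Jazf1, at 0.122 to 0.171. This likeness is a description over 5 libraries.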

How the data were processed

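Per the labels' protocols, Trizol RNA of frozen tissue went into TruSeq RNA libraries. TopHat2 2.0.9, Cufflinks 2.2.1 and Cuffdiff with the build mm10 were used by the authors, per the submitters' processing notes; neither annotation nor strandedness is given in the sources used here. The deposited replicate table holds estimated counts of fragments before scaling and FPKM values scaled by the authors, per the file headers. Its condition name gave each library's group, and its numbers only name libraries. Library pairs of a group differed by a chi-square of 5.56 (wild type) and 108 to 139 (tumors) per degree of freedom, so all 5 were kept.

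Counts were rounded to whole numbers (96.8% to 97.1% per library were exactly whole). Loci without a name (1627, with 1.52% to 4.37% of fragments) stayed out. edgeR 4.0.16 in R 4.3.3 compared 3 tumor with 2 wild-type libraries (filterByExpr, TMM, quasi-likelihood F-test, two-sided, Benjamini-Hochberg adjustment over 15241 loci); an adjusted p under 0.05 counted as a call. The words rose and fell refer to calls alone. Each SE was derived as log2 fold change over root F. The procedure was run on simulated counts given the same spread in both groups. That run therefore does not cover the unequal spread of tumors and wild type in these data. DESeq2 1.42.0 and limma 3.58.1 were alternatives. The members, gene lists and tests were chosen with earlier results of these data known. Beyond the members, up to 3 called genes with the smallest p per list and direction are named with their p, and Wtip, Lix1, Rere and Enah were added after their values were seen. Protein sequences were not used here.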

Additional observations from a re-analysis of the deposited data

How the results depend on the processing

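In 14 alternatives, Dchs1 kept a negative and Fjx1, like Fat1, a positive log2 fold change, and Fat3 and Fat4 stayed negative without a call. With library size alone Dchs1 was at −1.17 without a call (0 members lower, where 13.4% of loci were). Fjx1 gained a call with DESeq2 (1.55) and with voom weighted per group, chosen after seeing the data (1.46). Thus 1 member was called higher in each, where 24.2% and 25% of loci were. Fat2 changed sign with voom (−1.30) and in unfiltered limma-trend of log2(FPKM + 1) (−0.086). Leaving out 1 library gave ranges of 0.50 to 1.03 for Fat1, −2.82 to 0.68 for Fat2, −1.85 to −0.51 for Fat3, −1.08 to −0.27 for Fat4, −1.55 to −1.07 for Dchs1 and 1.20 to 1.92 for Fjx1, with 0 to 1 members called higher, 0 to 2 lower, and 0 to 6144 loci called. The 0 arose without wild-type library 1 or 2, where 4085 and 3996 loci had an unadjusted p under 0.05 and the remaining library is assumed to vary like the tumors; DESeq2 was not run on those sets. Without tumor 1, 2 or 3, 13.7%, 20.7% or 16.6% of all loci were called lower. Those called higher were 15.9% without tumor 1 and 18.7% without tumor 3. The causes of the other changes were not tested. With FPKM of at least 1 required in 2 libraries, Fat2 and Fat3 gave no value.

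The replicate block, on numbers that groups share without a stated pairing, called 3067 loci. It put Dchs1 at −1.09 without a call (0 members lower, where 8.93% of loci were), Fjx1 at 1.94 with one (1 member higher, where 11.2% were) and Fat2 at −0.48. Only tumors have a library 3, so tumor 3 stood alone in its block and added nothing to the group difference. For Fjx1 the block thus lies close to the fit without tumor 3, which gave 1.92. This closeness did not hold for Fat2, at −0.48 under the block and 0.65 without tumor 3. Under the block 1 partner gene rose and 0 fell, 0 planar polarity genes rose or fell, and 5 Hippo cassette genes rose and 2 fell. Same-numbered libraries deviated together only weakly across loci (correlations 0.018 and 0.036). For 29 other named genes, 236 of 261 values under other tests, scalings, filters or the block kept their side of the threshold, 23 lost it, 2 gained it and 0 changed sign. Fits with 1 library left out are not in this tally, so it does not show how the calls depend on single libraries. Fat3 had 8 to 61 fragments per library, so its level carries a wide counting error.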
